A study of Mus musculus with 14 samples.

Results

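The 10 genes described here, Fkbp5, Tsc22d3, Sgk1, Klf15, Zbtb16, Nfil3, Pdk4, Angptl4, Cpt1a and Bckdhb, are known for their response to glucocorticoid hormones or to fasting. They were taken by name from a table of 56748 genes measured in mouse ovary, and some of them were selected on measured values of these libraries, the effects of dextran sulfate sodium (DSS), which differed between the days of the study. All 10 were found, and all 10 were among the 18006 genes with enough signal to test. The DSS effects of these genes are therefore given as a description with no test, and only their difference between days, averaged over treatments, was tested.

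DSS is a polysaccharide that, in drinking water, produces colitis in mice, and the study compared ovaries of DSS mice with those of controls at 2 times. All animals were female wild-type (WT) C57BL/6J mice. There were 4 DSS libraries and 3 control libraries at day 89, and 4 DSS libraries and 3 control libraries at day 7. The labels write only the day, the treatment and a library number, and no dose or age. They do not say whether each library came from its own animal, so the p-values reflect how far libraries of a group lie apart, and part of that may be technical.

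Glucocorticoids, the adrenal steroids released under stress, inflammation and fasting, bind a receptor that enters the nucleus and switches on genes from a palindromic DNA site. In a fasting animal the same hormones act with PPAR and FOXO factors to move tissues from glucose to fatty acids and amino acids as fuel. In the ovary, follicle and luteal cells both respond to glucocorticoids and use stored lipid for steroid synthesis.

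Because the receptor acts through this site, promoter sequence of the genes it is best known to induce is shown first. RefSeq promoter windows on GRCm38.p6, each the 250 bases before an annotated start, were matched for 8 of the 10 genes (16 windows), and Angptl4 and Zbtb16 were not matched. The full glucocorticoid response element, searched as the arm AGAACA, a spacer of 3 bases and the reverse complement TGTTCT, which reads alike on both strands, occurred in 3 of 32851 windows, a share of 0.00913%, and 1 of the 3 was a window of Sgk1. The single arm, AGAACA or TGTTCT, was in 16.1% of all windows and in 5 of the 16 windows of these genes, belonging to Sgk1, Tsc22d3 and Bckdhb. The E-box CACGTG, a site of circadian and other helix-loop-helix factors, was in 6.02% of windows and in windows of Fkbp5, Klf15 and Sgk1, and it is shown for Fkbp5. In the first sequence, from chr10:21993640-21993889 on the plus strand, capitals mark the full element. In the second, from chr17:28486150-28486399 on the minus strand, capitals mark the E-box. Both are written 5′ to 3′ along the gene, and a match is a description of the letters, not of binding.
Sgk1: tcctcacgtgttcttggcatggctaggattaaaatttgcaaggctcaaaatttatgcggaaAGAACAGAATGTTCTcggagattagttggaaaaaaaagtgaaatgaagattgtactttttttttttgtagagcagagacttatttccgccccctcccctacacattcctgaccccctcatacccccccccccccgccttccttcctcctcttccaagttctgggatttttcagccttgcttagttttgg
Fkbp5: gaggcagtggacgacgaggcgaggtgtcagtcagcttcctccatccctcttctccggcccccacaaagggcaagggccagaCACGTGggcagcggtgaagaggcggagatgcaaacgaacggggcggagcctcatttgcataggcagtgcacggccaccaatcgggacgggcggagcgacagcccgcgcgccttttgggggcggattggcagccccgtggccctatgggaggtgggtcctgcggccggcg

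Expression was deposited as FPKM, that is, fragments counted on a gene divided by its length and by the depth of the library, which allows levels of different genes to be compared per length. Averaged over the 14 libraries, Fkbp5 (84.5 FPKM) and Sgk1 (71.4 FPKM) were the most abundant of the 10. Cpt1a (33.8 FPKM) and Angptl4 (33.5 FPKM) came next, followed by Tsc22d3 (20.3 FPKM), Bckdhb (13.05 FPKM), Klf15 (7.87 FPKM), Nfil3 (5.49 FPKM) and Pdk4 (5.34 FPKM). Zbtb16 was close to the detection limit with 0.499 FPKM. The ranges of neighbours in this order overlapped over the 14 libraries, and the order was not tested.

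The libraries held 15.3 to 18.5 recovered reads in units of 1000000. Transcripts of the mitochondrial genome made up 14.2% of reads in DSS day 7 library 75 and 9.96% and 12.2% in control day 7 libraries 10 and 53, against 0.479% to 4.04% in the other 11. These 3 libraries form the high mitochondrial class, which leaves 3 DSS libraries and 1 control library outside it at day 7. Short genes stood lower relative to long genes at day 89 than at day 7. The log2 gap between the shortest and the longest 25% of genes was −0.307 to 0.107 in DSS day 89, −0.381 to −0.342 in control day 89, 0.142 to 0.418 in DSS day 7 and 0.119 to 0.395 in control day 7 libraries. Luteal markers summed to 1977 to 5917 FPKM per library, while none of 8 retina markers exceeded 0.733 FPKM, although the extraction protocol in the labels speaks of retinas. In bulk tissue, fewer cells of a type and less RNA per cell cannot be told apart. Adipocyte markers, which matter here because Angptl4, Pdk4 and Klf15 are also fat genes, summed to 27.8 to 129 FPKM in DSS day 89, 38.9 to 122 in control day 89, 18.1 to 81.8 in DSS day 7 and 32.4 to 70.5 in control day 7 libraries (12 of 12 in the table). Of these markers, Plin4 (5.53 to 114 FPKM), Lipe (5.68 to 10.3), Plin1 (2.39 to 6.90), Fabp4 (0.807 to 2.39) and Car3 (0.250 to 7.36) were above 0 in every library. Adipoq lay between 0 and 0.43 FPKM, Lep was at 0 in 13 libraries and Ucp1 in 9, and Cidea, Cidec, Retn and Cfd were each at 0 in 3 to 5. The part of adipocytes in the results was not tested.

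**Figure D1:**
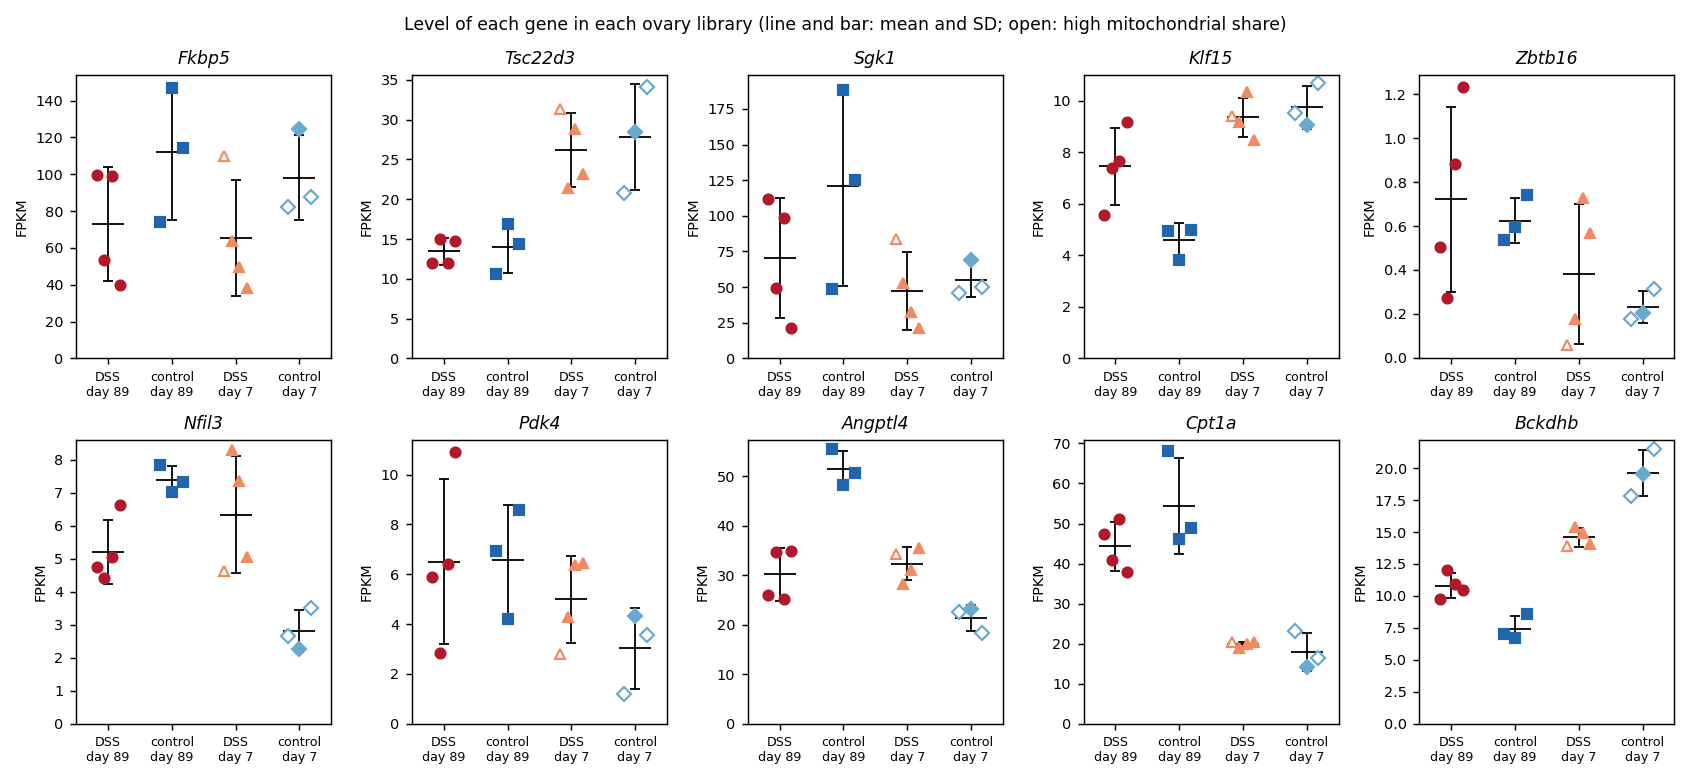
FPKM of the 10 genes in each of the 14 libraries (1 symbol per library, linear axis from 0, a scale for each panel) by group, with the group mean as a line, its SD as a bar, and open symbols for the 3 libraries of the high mitochondrial class. The days do not overlap for Cpt1a, Tsc22d3 and Bckdhb, while Fkbp5 and Sgk1 spread widely within groups.

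Fkbp5 (ENSMUSG00000024222, GRCm38 chr17:28399094-28517527, minus strand) encodes a co-chaperone of HSP90 that lowers the hormone affinity of the glucocorticoid receptor, and its induction by that receptor closes a feedback loop. It had 99.6, 53.3, 98.9 and 39.7 FPKM in DSS day 89 ovaries and 74.0, 147 and 114 FPKM in control day 89 ovaries. Its day 7 levels were 110, 63.6, 49.6 and 38.2 FPKM in DSS and 82.2, 125 and 87.6 FPKM in control ovaries. DSS and control libraries overlapped on both days. The mean was lower in DSS ovaries by much the same amount on each day, 72.9 ± 30.9 against 112 ± 36.6 FPKM at day 89 and 65.4 ± 31.6 against 98.2 ± 23.1 FPKM at day 7 (SD, n = 4 and 3). The log2 differences were −0.66 ± 0.38 at day 89 and −0.67 ± 0.38 at day 7 (SE). The day 7 value took both signs within mitochondrial classes, 0.37 among the 3 libraries of high share and −1.32 among the other 4. Averaged over treatments, day 89 and day 7 did not differ by the test (0.16 ± 0.27 on the log2(FPKM + 1) scale, adjusted p = 0.649 by limma with Benjamini-Hochberg adjustment over all genes tested), and the value was −0.10 once the length trend was removed.

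Tsc22d3 (ENSMUSG00000031431, chrX:140539528-140600659, minus strand) encodes GILZ, the glucocorticoid-induced leucine zipper, which restrains NF-kappa-B and AP-1 in immune cells. Its level was lower at day 89 than at day 7 in both treatments. It measured 11.98, 15.01, 12.04 and 14.8 FPKM in DSS day 89 and 10.6, 16.8 and 14.4 FPKM in control day 89 ovaries. At day 7 it measured 31.3, 21.4, 28.8 and 23.2 FPKM in DSS and 20.8, 28.4 and 34.1 FPKM in control ovaries. Every day 89 library lay below every day 7 library. The mean fell to 13.7 ± 2.19 FPKM at day 89, against 26.9 ± 5.15 FPKM at day 7 (SD, n = 7 each), a log2 difference of −0.92 ± 0.14 (limma adjusted p = 0.000216). The DSS minus control difference was −0.03 ± 0.20 at day 89 and −0.07 ± 0.20 at day 7 (log2, SE), the day 7 value being 0.22 inside and −0.22 outside the high mitochondrial class.

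Sgk1 (ENSMUSG00000019970, chr10:21882184-21999903, plus strand) encodes the serum- and glucocorticoid-regulated kinase, which acts on ion channels and FOXO factors and in rat granulosa cells is also induced by follicle-stimulating hormone. It was the least steady of the abundant members, with a highest library 8.91 times the lowest. It had 112, 49.6, 98.3 and 21.3 FPKM in DSS day 89 ovaries and 49.0, 188 and 125 FPKM in control day 89 ovaries. In day 7 ovaries it had 83.4, 53.1, 32.4 and 21.1 FPKM in DSS and 46.2, 69.2 and 50.4 FPKM in control ovaries. The groups overlapped throughout, with the lowest library of each day a DSS library, R89 at day 89 and 82 at day 7. DSS minus control was −0.83 ± 0.58 at day 89 and −0.37 ± 0.58 at day 7 (log2, SE), the day 7 value being 0.78 among the libraries of high mitochondrial share and −1.04 among the others. The day contrast did not pass the test (0.67 ± 0.40, limma adjusted p = 0.188). It passed in 1 of 22 alternatives, without DSS day 89 library R89 (0.97, adjusted p = 0.043).

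Fkbp5 and Sgk1 varied together from library to library. Pearson's r between their log2 values was 0.975 over the 7 day 89 libraries (exact permutation p = 0.000595, adjusted p = 0.0446 over 90 relations) and Spearman's rho was 0.964 (exact permutation p = 0.00278, adjusted p = 0.25). Over the 7 day 7 libraries r was 0.931 (exact permutation p = 0.00298, adjusted p = 0.0893) and rho was 0.857 (exact permutation p = 0.0238, adjusted p = 0.429). All tests were two-sided, and the permutations mixed the DSS and control libraries of a day. Both genes had lower means in DSS ovaries on both days, so this difference enters r, rho and their p-values. Without the 2 libraries farthest from the median of Fkbp5, r was 0.979 at day 89 and 0.717 at day 7. Of 90 relations, 45 pairs of members on each day, the one at day 89 was 1 of 2 with an adjusted p below the threshold for r, and none had one for rho. The other, between Angptl4 and Bckdhb at day 7, joins genes whose DSS and control libraries form separate clusters, so no r is given. Both had the same adjusted p of 0.0446, which the Benjamini-Hochberg step took from the Angptl4 and Bckdhb pair. The day 89 relation of Fkbp5 and Sgk1 therefore passed only through that pair. Some members were picked for DSS effects, so this pass is not a result, and r is a description. The mitochondrial classes of day 7 held 3 and 4 libraries, too few for a value of r. Summed granulosa markers were 1598, 1997, 1572 and 2982 FPKM in DSS day 89 libraries R29, R38, R78 and R89 and 1299, 1895 and 1674 FPKM in control day 89 libraries R123, R124 and R126. In day 7 libraries the sum was 607, 1819, 1901 and 2790 FPKM in DSS 75, 80, 81 and 82 and 1147, 1445 and 917 FPKM in control 10, 51 and 53. Inha weighed most in these sums, with a median of 1224 FPKM over the 14 libraries against 115 FPKM for Amh, the next marker. R89 and 82, lowest in both genes on their day, had the highest sums, and the part of granulosa cells in the relation was not tested.

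**Figure D2:**
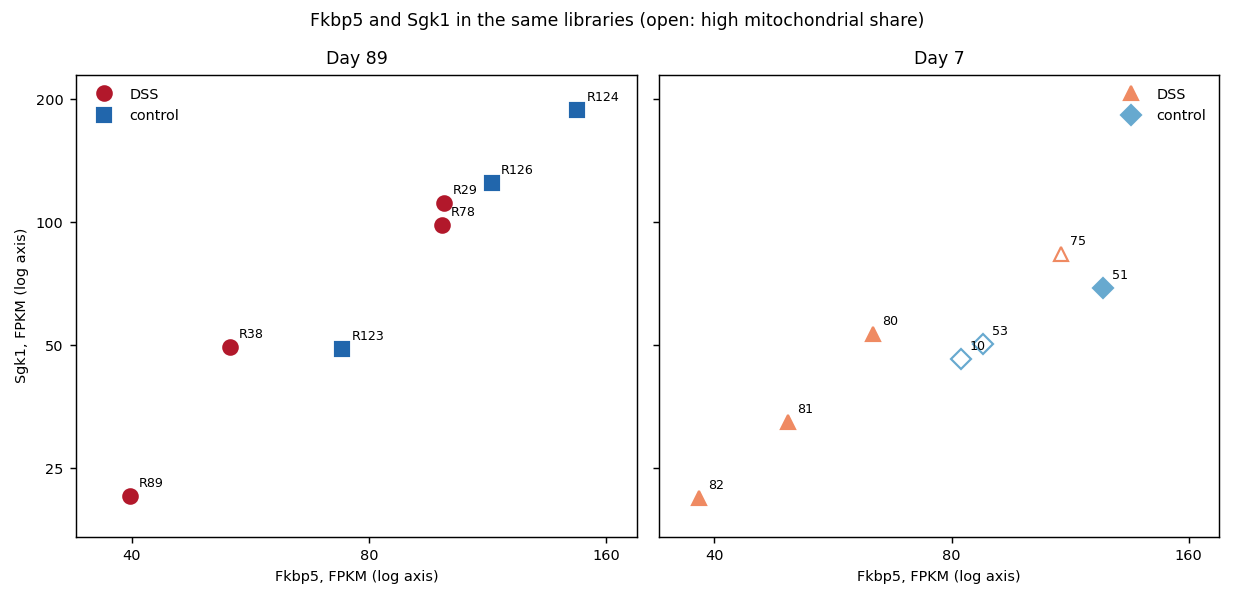
Fkbp5 against Sgk1 in FPKM, both axes logarithmic, 1 symbol per library with day 89 and day 7 in separate panels, colour and shape for the treatment, and open symbols for the high mitochondrial class. Libraries high in 1 gene are high in the other (r = 0.975 at day 89, 0.931 at day 7), with DSS library R89 lowest at day 89 and DSS library 82 lowest at day 7.

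Among the transcription factors, Klf15 (ENSMUSG00000030087, chr6:90462576-90475238, plus strand) is induced by glucocorticoids and drives amino acid breakdown in muscle and liver. It had 5.57, 7.37, 7.68 and 9.18 FPKM in DSS day 89 and 4.93, 3.82 and 4.99 FPKM in control day 89 ovaries. At day 7 it had 9.42, 9.16, 10.3 and 8.49 FPKM in DSS and 9.52, 9.05 and 10.7 FPKM in control ovaries. The 3 control day 89 libraries were the lowest of all 14, and each DSS day 89 library lay above them, while the day 7 groups overlapped. The mean fell to 6.22 ± 1.90 FPKM at day 89, against 9.52 ± 0.754 FPKM at day 7 (SD, n = 7 each), a log2 difference of −0.58 ± 0.11 (limma adjusted p = 0.000745). Within treatments, day 89 minus day 7 was −0.31 in DSS and −0.95 in control ovaries. The DSS minus control difference was 0.59 ± 0.15 at day 89 and −0.05 ± 0.15 at day 7 (log2, SE), the day 7 value being −0.09 inside and 0.04 outside the high mitochondrial class.

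Nfil3 (ENSMUSG00000056749, chr13:52967209-52981073, minus strand) encodes a leucine zipper repressor that competes with the clock output factors DBP, TEF and HLF and is needed for innate lymphoid and natural killer cells. It had 4.76, 4.42, 5.05 and 6.62 FPKM in DSS day 89 and 7.85, 7.02 and 7.32 FPKM in control day 89 ovaries. Its day 7 levels were 4.62, 8.30, 7.35 and 5.05 FPKM in DSS and 2.66, 2.27 and 3.51 FPKM in control ovaries. DSS libraries lay below all controls at day 89 and above all controls at day 7. DSS minus control was −0.45 ± 0.19 at day 89 and 0.92 ± 0.19 at day 7 (log2, SE), the day 7 value being 0.47 among libraries of high mitochondrial share and 1.25 among the others. Averaged over treatments, Nfil3 rose to 6.15 ± 1.38 FPKM at day 89, against 4.82 ± 2.29 FPKM at day 7 (0.37 ± 0.13, limma adjusted p = 0.0368). The average joins −0.22 in DSS and 1.15 in control ovaries. The call was lost in 10 of 22 alternatives, the smallest value being 0.17 (adjusted p = 0.363) without the 3 libraries of high mitochondrial share. Leaving out any 1 of the 6 control libraries also ended it, with 0.25 to 0.34 and adjusted p between 0.0758 and 0.155, as did leaving out DSS day 89 library R89 (0.35, adjusted p = 0.0505). Each of these fits also changed the mix of DSS and control libraries that the day contrast averages, so part of the DSS effect enters its value. With the length trend removed the value was 0.57 (adjusted p = 0.00681).

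Zbtb16 (ENSMUSG00000066687, chr9:48654297-48836222, minus strand) encodes the zinc finger repressor PLZF, which glucocorticoids and progesterone induce in human endometrial stroma. It rested on 4 to 115 reads per library and reached the filter of 0.5 FPKM in 8 of the 14. It had 0.504, 0.272, 0.880 and 1.23 FPKM in DSS day 89 and 0.538, 0.598 and 0.740 FPKM in control day 89 ovaries. At day 7 it had 0.0562, 0.177, 0.730 and 0.567 FPKM in DSS and 0.176, 0.205 and 0.312 FPKM in control ovaries. The groups of each day overlapped, and the DSS libraries spanned both the lowest and the highest values. The day contrast was 0.35 ± 0.14 (limma adjusted p = 0.0613) and passed in 4 of 21 alternatives, among them voom on the recovered reads (1.38, adjusted p = 0.0373). The other 3 left out DSS day 89 library R38 (0.41, adjusted p = 0.0242), DSS day 7 library 81 (0.42, adjusted p = 0.0317) or DSS day 7 library 82 (0.40, adjusted p = 0.0497). The DSS minus control difference was 0.05 ± 0.21 at day 89 and 0.14 ± 0.21 at day 7 (log2, SE), the day 7 value being −0.23 inside and 0.29 outside the high mitochondrial class.

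The remaining members act in fuel use. Angptl4 (ENSMUSG00000002289, chr17:33773750-33781830, minus strand) encodes a secreted inhibitor of lipoprotein lipase that fasting, PPAR factors and glucocorticoids raise. It had 26.1, 34.6, 25.2 and 34.9 FPKM in DSS day 89 and 55.5, 48.2 and 50.7 FPKM in control day 89 ovaries. In day 7 ovaries it had 34.4, 28.3, 31.0 and 35.6 FPKM in DSS and 22.5, 23.2 and 18.4 FPKM in control ovaries. DSS ovaries kept to one range on both days, 30.2 ± 5.29 FPKM at day 89 and 32.3 ± 3.32 FPKM at day 7 (SD, n = 4 each). Control ovaries averaged 51.5 ± 3.72 FPKM at day 89 and 21.3 ± 2.59 FPKM at day 7 (SD, n = 3 each), on either side of that range. DSS minus control was therefore −0.76 ± 0.15 at day 89 and 0.58 ± 0.15 at day 7 (log2, SE), with 0.73 and 0.43 at day 7 inside and outside the high mitochondrial class. Averaged over treatments, Angptl4 rose to 39.3 ± 12.2 FPKM at day 89, against 27.6 ± 6.49 FPKM at day 7 (0.47 ± 0.10, limma adjusted p = 0.0028), an average of −0.11 in DSS and 1.24 in control ovaries.

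Cpt1a (ENSMUSG00000024900, chr19:3322334-3385733, plus strand) encodes the carnitine palmitoyltransferase that admits long-chain fatty acids to mitochondria and sets the rate of their oxidation. It had 47.3, 40.8, 51.2 and 37.8 FPKM in DSS day 89 and 68.2, 46.2 and 48.9 FPKM in control day 89 ovaries. At day 7 it had 20.3, 18.9, 19.9 and 20.3 FPKM in DSS and 23.2, 14.1 and 16.3 FPKM in control ovaries. Every day 89 library exceeded every day 7 library, and DSS and control overlapped on both days. Cpt1a rose to 48.6 ± 9.79 FPKM at day 89, against 19.0 ± 2.96 FPKM at day 7 (SD, n = 7 each), a log2 difference of 1.30 ± 0.12 (limma adjusted p = 2.07e-05). The difference was 1.11 in DSS and 1.56 in control ovaries. Cpt1a is a long gene, at percentile 85.3 of the lengths of tested genes, and the difference was 1.09 once the length trend was removed. DSS minus control was −0.28 ± 0.18 at day 89 and 0.17 ± 0.18 at day 7 (log2, SE), the day 7 value being 0.06 inside and 0.45 outside the high mitochondrial class.

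Bckdhb (ENSMUSG00000032263, chr9:83925145-84124240, plus strand) encodes the beta subunit of the decarboxylase component of branched-chain keto acid dehydrogenase, the committed step in the breakdown of leucine, isoleucine and valine. It had 9.77, 12.1, 10.9 and 10.4 FPKM in DSS day 89 and 7.05, 6.72 and 8.56 FPKM in control day 89 ovaries. Its day 7 levels were 13.9, 15.4, 14.9 and 14.02 FPKM in DSS and 17.8, 19.5 and 21.5 FPKM in control ovaries. The 4 groups did not overlap at all: control day 89 was lowest, then DSS day 89, DSS day 7 and control day 7. The DSS minus control difference was 0.49 ± 0.12 at day 89 and −0.40 ± 0.12 at day 7 (log2, SE), with −0.46 and −0.38 at day 7 inside and outside the high mitochondrial class. The mean fell to 9.36 ± 2.001 FPKM at day 89, against 16.7 ± 2.93 FPKM at day 7 (−0.78 ± 0.084, limma adjusted p = 3.03e-05). Bckdhb is short, at length percentile 27.6, and the difference was −0.56 with the length trend removed. It was −0.40 in DSS and −1.29 in control ovaries.

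Pdk4 (ENSMUSG00000019577, chr6:5483351-5496309, minus strand) encodes a kinase that shuts off pyruvate dehydrogenase and so spares glucose. It had 5.87, 2.85, 6.40 and 10.9 FPKM in DSS day 89 and 6.94, 4.19 and 8.57 FPKM in control day 89 ovaries. At day 7 it had 2.81, 4.29, 6.38 and 6.46 FPKM in DSS and 1.19, 4.31 and 3.58 FPKM in control ovaries. All 4 groups overlapped, and the highest library was 9.13 times the lowest. The day contrast was 0.57 ± 0.27 (limma adjusted p = 0.103) and passed in 1 of 22 alternatives, without DSS day 89 library R38 (0.71, adjusted p = 0.0324). It was 0.18 (adjusted p = 0.640) without the 3 libraries of the high mitochondrial class, 0.23 (adjusted p = 0.573) with a term for them, and 0.38 (adjusted p = 0.245) without control day 7 library 10. DSS minus control was −0.08 ± 0.39 at day 89 and 0.62 ± 0.39 at day 7 (log2, SE). The day 7 value was 0.27 inside and 0.32 outside the high mitochondrial class, and 0.23 without control library 10.

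Set side by side, 6 of the 10 genes passed the day test, 3 higher at day 89 (Cpt1a, Angptl4 and Nfil3) and 3 lower (Tsc22d3, Bckdhb and Klf15). Of all 18006 genes 45.6% passed, 22.7% higher and 22.9% lower, so the share among these genes was near that of the transcriptome. The libraries of day 89 and day 7 did not overlap for 3 members, Cpt1a above (6.19% of all genes) and Tsc22d3 and Bckdhb below (5.87%), against 12.1% in either direction. Apart from Nfil3, each of the 6 calls held in all 22 alternatives. The mitochondrial class and the length trend moved with the day, and their part in these differences was not tested beyond the alternatives. The labels name no batch, so the day, the age of the animals and any batch cannot be told apart. No day 89 library was in the high mitochondrial class, so the within-class value is the one without those 3 libraries. This within-class value was 1.35 for Cpt1a, 0.36 for Angptl4, −0.85 for Tsc22d3, −0.73 for Bckdhb and −0.55 for Klf15. That fit kept 3 DSS libraries and 1 control library at day 7, against 4 and 3 at day 89. The treatment mix thus differed between the days, and part of the DSS effects enters these values.

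**Figure D3:**
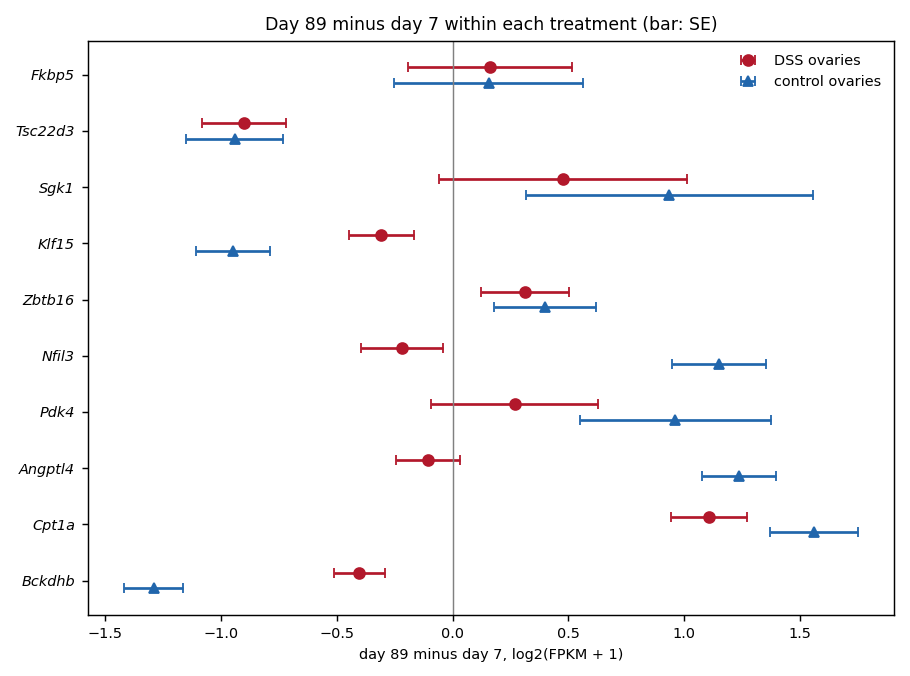
Day 89 minus day 7 on the log2(FPKM + 1) scale for each gene, within DSS ovaries (circles) and within control ovaries (triangles), with SE bars. Cpt1a lies furthest to the right in both treatments (1.11 in DSS, 1.56 in control), and for Nfil3 and Angptl4 the DSS and control symbols lie on opposite sides of 0.

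The DSS comparisons, which helped to choose the genes, are given only as values. DSS and control libraries did not overlap for 4 members at day 89 (8.29% of all genes), Klf15 and Bckdhb higher (4.04% of all genes) and Nfil3 and Angptl4 lower in DSS (4.25%). At day 7 they did not overlap for 3 members (12.1% of all genes), Nfil3 and Angptl4 higher (6.24%) and Bckdhb lower in DSS (5.87%). Complete separation in opposite directions on both days was found for 56 of 18006 genes, 0.311%, with Nfil3, Angptl4 and Bckdhb among them. The difference between the DSS effects, day 89 minus day 7, was −1.37 ± 0.27 for Nfil3, −1.34 ± 0.21 for Angptl4, 0.89 ± 0.17 for Bckdhb and 0.64 ± 0.21 for Klf15 (log2, SE). For Fkbp5 it was 0.00 ± 0.54, for Tsc22d3 0.04 ± 0.28, for Sgk1 −0.46 ± 0.82, for Zbtb16 −0.09 ± 0.29, for Pdk4 −0.70 ± 0.55 and for Cpt1a −0.45 ± 0.25. The largest of these values belonged to Nfil3, Angptl4 and Bckdhb. Some members were picked for such differences, so neither this size nor the opposite separation is a result about them. For Fkbp5 the value was 0.66 and for Sgk1 0.21 without the 3 libraries of the high mitochondrial class. These differences and those between days within a treatment rest on the same libraries. Among all genes limma called 1 at day 89 (0.00555%), 6 at day 7 (0.0333%) and 0 for the difference. With no adjustment 824 genes (4.58%) had a p under 0.05 at day 89, 2889 (16%) at day 7 and 1521 (8.45%) for the difference, and voom on recovered reads called 0 in each.

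**Figure D4:**
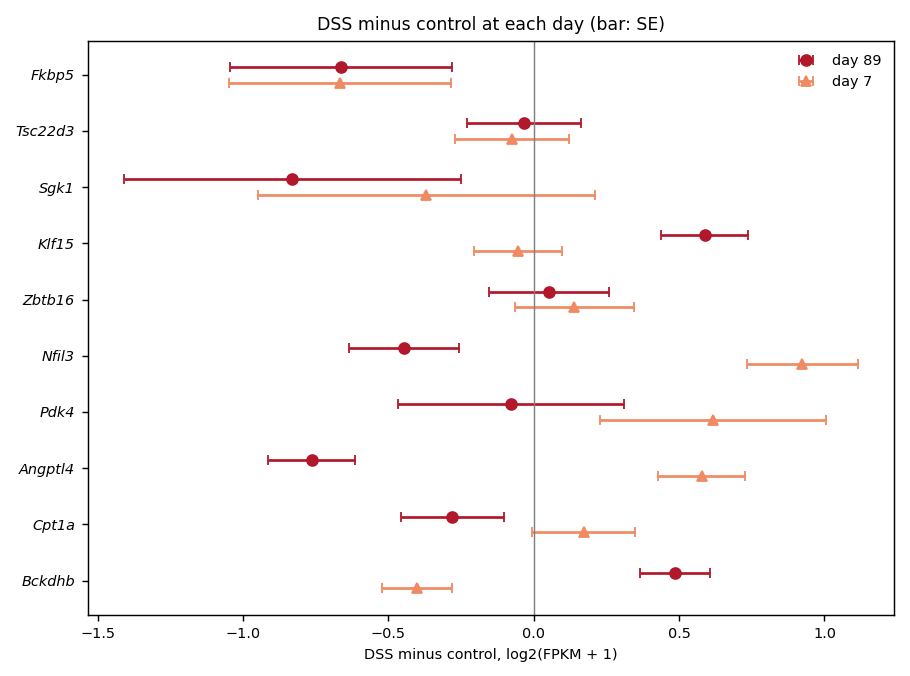
DSS minus control on the log2(FPKM + 1) scale for each gene, day 89 (circles) and day 7 (triangles), with SE bars. For Nfil3, Angptl4, Bckdhb, Klf15 and Cpt1a the symbols lie on opposite sides of 0 with bars that do not meet. For Klf15 and Cpt1a the day 7 bar reaches 0. For Fkbp5 the symbols coincide at −0.66 and −0.67.

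Markers of other cells also differed between the groups. Neutrophil markers summed to 3.58 to 9.87 FPKM in DSS day 89, 2.71 to 5.69 in control day 89, 12.9 to 131 in DSS day 7 and 1.81 to 3.68 in control day 7 libraries. Macrophage markers, of cells that express Nfil3 and Tsc22d3 too, summed to 254 to 578 FPKM in DSS day 89, 154 to 278 in control day 89, 277 to 360 in DSS day 7 and 123.2 to 180 in control day 7 libraries. Luteal markers were higher at day 89, with 3497 to 5917 FPKM in DSS and 4471 to 5030 FPKM in control libraries, against 1977 to 3070 FPKM in DSS and 2471 to 3520 FPKM in control libraries at day 7. Oocyte markers ran the other way, with 55.8 to 165 FPKM in DSS and 32.0 to 131 FPKM in control libraries at day 89, against 283 to 451 FPKM in DSS and 134 to 253 FPKM in control libraries at day 7. Erythroid markers summed to 44.4 to 656 FPKM in DSS day 89, 42.7 to 45.6 in control day 89, 410 to 726 in DSS day 7 and 49.9 to 310 in control day 7 libraries. Granulosa markers summed to 1572 to 2982 FPKM in DSS day 89, 1299 to 1895 in control day 89, 607 to 2790 in DSS day 7 and 917 to 1445 in control day 7 libraries. At day 7 DSS libraries lay above all controls in the neutrophil, macrophage, oocyte and erythroid sums. They overlapped controls in the luteal and granulosa sums. Inha weighed most in the granulosa sum and Hsd3b1 in the luteal sum, with medians of 1224 and 2405 FPKM over the 14 libraries. The part of these cell types in the members' differences was not tested.

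Other genes of the same pathways were followed in 6 lists. The receptor itself, Nr3c1, rose to 8.62 ± 1.40 FPKM at day 89, against 5.80 ± 1.19 FPKM at day 7 (SD, n = 7 each, log2 difference 0.50, limma adjusted p = 0.00784). That call was lost with a term for the high mitochondrial class (0.35, adjusted p = 0.0786) and with the length trend removed (0.29, adjusted p = 0.0588). Of 12 tested genes for the receptor, its chaperones and the enzymes that make or inactivate its hormone, 5 rose and 1 fell, with a median of 0.24 against −0.0029 over all genes. The 50% called is near the 45.6% of all genes. The coactivators Ncoa1 (0.92) and Ncoa2 (0.75) rose and the HSP90 co-chaperone Ptges3 fell (−0.77). Among 27 other induced targets of the receptor 4 rose and 6 fell (median 0.11), 37.0% against 45.6% of all genes, including Mertk (0.50), a receptor for the uptake of dead cells, and Arrdc2 (−0.57), Cebpd (−0.72) and Sult1a1 (−0.62). The call of Sult1a1 was lost without the 3 libraries of high mitochondrial share (−0.48, adjusted p = 0.0515), with a term for them (−0.37, adjusted p = 0.107) and with the length trend removed (−0.38, adjusted p = 0.0668).

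Part of the fatty acid oxidation genes rose at day 89, as Cpt1a did. Of 29 tested fasting genes of fatty acid oxidation and lipid release 12 rose, none fell and 17 did not pass (median 0.16), a share of 41.4% against the 45.6% of all genes in either direction. Over all genes 22.7% were called higher and 22.9% lower, and the direction within the list was not tested. Acadvl, the first dehydrogenase of long-chain oxidation, rose to 20.9 ± 4.03 FPKM at day 89, against 7.25 ± 1.86 FPKM at day 7 (log2 difference 1.42, limma adjusted p = 1.9e-05). Hadha (0.87), of the trifunctional protein, and the nuclear receptor Ppard (0.56) rose as well. Of 20 genes tied to FOXO factors and insulin 5 rose and 5 fell (median 0.20), again 50%. Catalase, Cat (0.62), and the transcriptional regulator Cited2 (0.77) rose, Foxo4 fell (−0.37) and the insulin receptor Insr rose (0.32) but stood at −0.021 once the length trend was removed. The call of Foxo4 was lost without the 3 libraries of high mitochondrial share (−0.19, adjusted p = 0.185) and with a term for them (−0.24, adjusted p = 0.107).

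The partners of the decarboxylase component moved apart between days. Bckdha, which encodes the alpha partner of the Bckdhb product, rose to 11.9 ± 1.99 FPKM at day 89, against 3.70 ± 2.16 FPKM at day 7 (log2 difference 1.55, limma adjusted p = 4.55e-05), while Bckdhb fell. The other subunits of the complex did not pass the test, Dbt with a log2 difference of 0.0064 (adjusted p = 0.974) and Dld with 0.087 (adjusted p = 0.535). By group Bckdha averaged 11.1 ± 2.31 FPKM in DSS and 12.8 ± 1.13 FPKM in control ovaries at day 89, and 4.87 ± 2.23 FPKM in DSS and 2.13 ± 0.131 FPKM in control ovaries at day 7 (SD, n = 4 and 3). Of 22 tested genes of branched-chain breakdown 5 rose and 2 fell (median 0.11), 31.8% called against 45.6% of all genes, among them Pcca (0.97), Hibch (0.55) and Mccc1 (0.57), the last with an adjusted p = 0.0528 once the length trend was removed (0.27). Among 23 relatives of the members by family 6 rose and 5 fell (median 0.13), 47.8% called, with Klf4 higher (0.85) and the angiopoietin-like Angptl1 (−0.99) and Angptl7 (−0.93) lower.

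In the DSS comparisons limma called 0 of the tested genes of the 6 lists (139 listed) at day 89, at day 7 and for the difference between days, and voom called 0 as well. With no adjustment, 4, 27 and 12 of them had a p under 0.05, and fewer genes were tested than the 139 listed. Among all 18006 tested genes such a p was found for 4.58% at day 89, 16% at day 7 and 8.45% for the difference. A p under 0.05 was thus common at day 7 in the whole transcriptome, and an excess in the lists was not tested. With adjustment, limma called 8 of the list genes at day 7 without DSS library 75. The same fit called 1221 of all 18006 tested genes. Calls in that fit were thus not particular to the lists, and an excess in the lists was not tested there either. Without library 75 the genes named here that passed were Bckdha (1.06, adjusted p = 0.0146), Pdk1 (0.63, adjusted p = 0.0274), Acadsb (−0.62, adjusted p = 0.0213), Ppm1k (−0.62, adjusted p = 0.0341) and Tef (−0.57, adjusted p = 0.048), besides Igfbp1 (1.12). Igfbp1 had 0.243 to 1.74 FPKM in DSS day 7 libraries and at most 0.241 FPKM in the other groups. It met the filter only through the group where it was high, so its pass is not a result about DSS. Without all 3 libraries of the high mitochondrial class, which left 1 control library at day 7, Ucp2 stood at 1.47 and Igfbp1 at 1.18. List medians lay between −0.16 and 0.02 at day 89 and between −0.19 and 0.13 at day 7. At day 89 the smallest p-values in the lists belonged to Cdkn1a (−1.52), a cell cycle inhibitor, Rhob (−0.46), Hsp90aa1 (−0.52), Ptges3 (−0.25), Ehhadh (0.33), Acadl (−0.24), Eif4ebp1 (0.47), Foxo3 (−0.34), Ivd (0.40), Bckdk (0.27), Hlf (0.24) and Klf13 (−0.25), all with a limma adjusted p = 0.924. At day 7 they belonged to the acute-phase lipocalin Lcn2 (0.99), Mertk (0.52), Fkbp4 (−0.49), H6pd (0.31), Ucp2 (0.87), Pdk1 (0.51), Igfbp1 (0.90), Foxo4 (−0.38), Acadsb (−0.58), Ppm1k (−0.55), Bckdha (0.82) and Tef (−0.49). Their limma adjusted p-values lay between 0.0872 and 0.565. For the difference between days they belonged to Lcn2 (−1.16), Rhob (−0.50), Hsp90aa1 (−0.42), Fkbp4 (0.32), Acadvl (−0.75), Acot1 (−0.65), Igfbp1 (−0.83), Txnip (−0.68), Acadsb (0.59), Bckdha (−1.03) and Tef (0.63), the lowest limma adjusted p being 0.517.

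**Figure D5:**
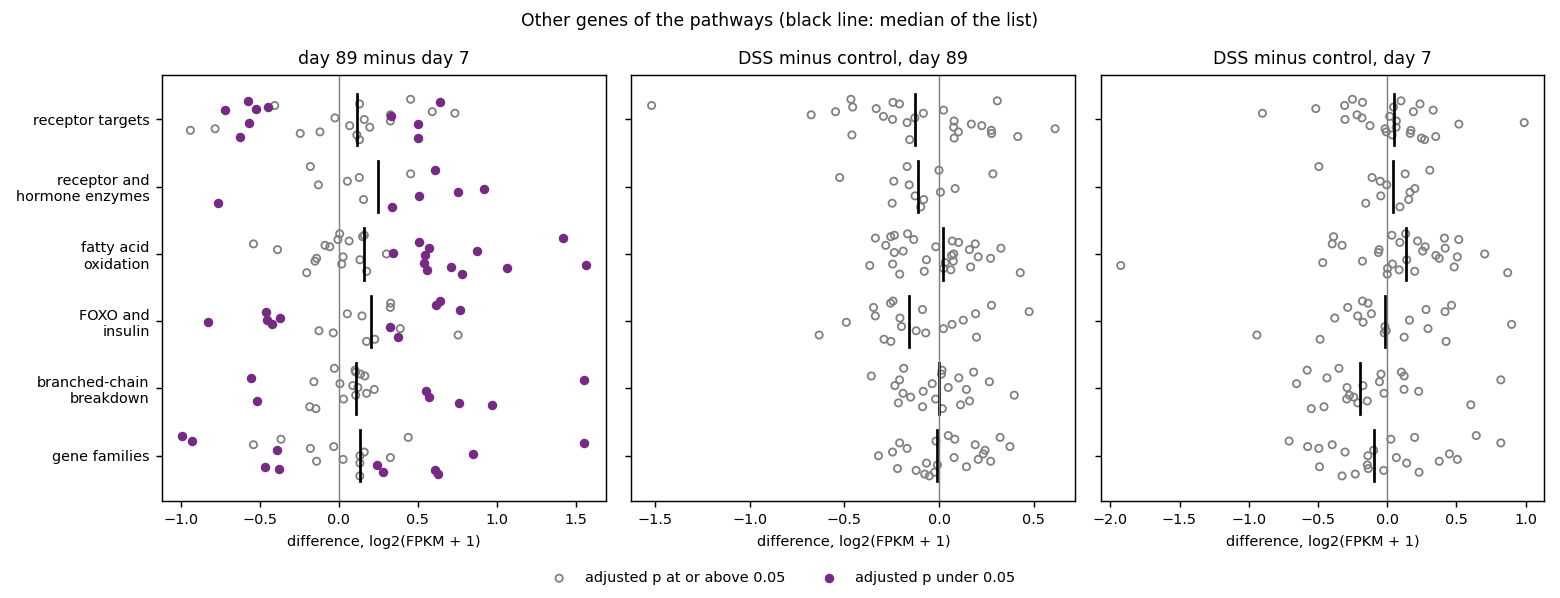
Differences on the log2(FPKM + 1) scale for the tested genes of the 6 pathway lists, 1 point per gene, for day 89 minus day 7 and for DSS minus control on each day; filled points passed the limma test and black lines are list medians. Filled points appear only in the day panel, where the fatty acid list has 12, all to the right of 0.

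Genes with the pattern most like each member over the 14 libraries were sought among 8152 genes with a mean of at least 5 FPKM by Pearson's r of log2(FPKM + 1). The points share library, day and length trend, so r is a description. Fkbp5 was closest to Cyb561d1 (0.950), Ltbp1 (0.943) and Jarid2 (0.921), and Sgk1 to Fam126a (0.931), Lrrn1 (0.929) and Ltbp1 (0.915). Ltbp1 was the only gene named for both. Cpt1a was closest to Irak1 (0.975), Abcb1a (0.969) and Ggcx (0.964), and Bckdhb to Rpl7a-ps11 (0.975), Zfp956 (0.935) and Tsen15 (0.932). Tsc22d3 was closest to Taf1a (0.960), Alad (0.959) and the ribosomal Rps6 (0.958). For Nfil3 these were Dnttip2 (0.941), Tle1 (0.922) and Ski (0.910), for Angptl4 Itgb5 (0.881), Dhx40 (0.870) and Ppm1d (0.851), and for Klf15 Map2k7 (0.894), Fabp3 (0.888) and Med19 (0.885). Pdk4 was closest to AI597479 (0.933), Jade3 (0.913) and Thbs1 (0.903), and Zbtb16 to Fam13a (0.899), Ephb4 (0.898) and Phactr2 (0.882).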

How the data were processed

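RNA of 14 ovary libraries was sequenced. The authors deposited FPKM per gene and library with a gene length in bases; HISAT2 2.0.5 and GRCm38 were used per the submitters' processing notes. Not given in the sources used here are the counter, the annotation and the strand handling. The product of FPKM and length fell within 0.01 of a whole step for 100% of values below 300 steps, which gave the reads behind each value. Deposited positions matched GRCm38 for 1 member, so positions come from GENCODE on GRCm38 by gene ID.

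Genes with at least 3 libraries at 0.5 FPKM were tested as log2(FPKM + 1), a scale that understates changes of low genes, with limma 3.58.1 (limma-trend, R 4.3.3): 1 mean per group over 14 libraries, two-sided, Benjamini-Hochberg adjustment over all tested genes, threshold 0.05. The day contrast over all libraries is uncorrelated with the difference between DSS effects (correlation 0), which the choice of genes had used. The code was tested on simulated data. Members and lists were chosen with earlier results of these data known. From each list, up to 4 genes past the threshold, otherwise the 2 with the smallest p, were named. For 1 gene that this rule names, the result is not reported here. Alternatives were a pseudocount of 0.1, no filter or one at 1 FPKM, median-ratio scaling, voom on recovered reads, removal of the length trend, 2 treatments of the 3 libraries of high mitochondrial share, a fit of the compared groups alone, and each library left out. The day contrast weights all libraries of a day alike, so leaving libraries out also changed its mix of DSS and control libraries.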

Additional observations from a re-analysis of the deposited data

Results flagged for a closer look

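DSS effects on both days were compared for each of the 10 genes, and 3 had every DSS library on one side of every control library at day 89 and on the other side at day 7. These were Nfil3 (difference between DSS effects −1.37, day 89 minus day 7, on the log2 scale), Angptl4 (−1.34) and Bckdhb (0.89). Over all tested genes 56 of 18006 (0.311%) had such opposite separation. Some of the 10 genes were picked for such differences, so the counts are not compared and no test of them is given here. Among the 20 sets of 4 DSS libraries, 10 genes on 2 days, no library stood apart from the others by Dixon's criterion.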

How the results depend on the processing

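No paired analysis was possible because no library number recurs between the groups. The calls of Tsc22d3, Klf15, Angptl4, Cpt1a and Bckdhb between days kept their direction and side of the threshold in 22 of 22 alternatives, and the count of genes called between days stayed within 1.5 times 8207. Counts of DSS calls over all genes rested on few libraries. At day 89 limma called 1 gene, 5 with no filter and 0 with a pseudocount of 0.1, a filter at 1 FPKM, voom, the length trend removed, the 2 groups fitted alone or the 3 libraries rich in mitochondrial reads left out, and 0 to 2 with 1 library left out. At day 7 it called 6, then 2 with a pseudocount of 0.1, 0 with voom or the 2 groups alone, 11 with the length trend removed, 20 with a term for the high mitochondrial class and 915 without its 3 libraries. With 1 library left out the day 7 count ran from 0 (without DSS library 80) to 1221 (without DSS library 75, of high mitochondrial share), with 41 without control library 10 and 14 without DSS day 89 library R38. For the difference between days it called 0, 2 with no filter, 3 without the 3 libraries, and 0 to 41 (without library 75) with 1 left out. The cause was not tested. Insr between days stood at −0.021 with the length trend removed, against 0.32. Zbtb16 had no value with a filter at 1 FPKM, and its few reads limit what can be seen of it.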
